A study of Mus musculus with 17 samples.

Results

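The respiratory chain of mitochondria is built from proteins of 2 genomes, and the genes described here are those that the nucleus holds. They were chosen by name: protein-coding mouse genes of the GENCODE annotation whose symbols start with Ndufa, Ndufb, Ndufc, Ndufs or Ndufv (complex I), Sdh (complex II), Uqcr (complex III), Cox4 to Cox8 (complex IV) or Atp5 (complex V, the ATP synthase), leaving out assembly factors named Ndufaf or Sdhaf. Of 86 such genes, 82 reached a mean CPM of 1 (read counts after scaling for library size) over the 17 libraries, out of 55487 genes in the count table: 38 of complex I, 4 of complex II, 8 of complex III, 15 of complex IV and 17 of complex V. The other 4 were Cox6a2, Cox7b2, Cox8c and a duplicate Atp5o entry (ENSMUSG00000116933), which had no reads. The rule itself reads no measured value beyond that minimum.

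Complexes I and II feed electrons from NADH and succinate into ubiquinone, complex III passes them on to cytochrome c, and complex IV hands them to oxygen. Complexes I, III and IV pump protons as they do so, and complex V lets the protons flow back and makes ATP. The choroid plexus is the epithelial tissue of the brain ventricles that secretes cerebrospinal fluid, an ATP-consuming task of cells known to be rich in mitochondria.

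Whole choroid plexus was dissected from the lateral ventricles of C57BL/6 mice, so epithelium, vessels, stroma and attached brain tissue were sequenced together. Mice received dextran sodium sulfate (DSS), an agent that is used to damage the colon epithelium, and 4 groups were compared: CTRL with no DSS (n = 5), T1 after 1 day of DSS (n = 4), T3 after 3 days (n = 4) and T5 after 3 days of DSS and 2 days of water (n = 4). The labels give neither age nor sex, and nothing in them says that the libraries of a group came from separate animals, so p-values measure the spread between libraries, which may in part be technical. In such bulk samples, fewer cells of a type and less RNA per cell cannot be told apart.

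Libraries held between 8875921 and 26839417 counts (median 18004090). The epithelial marker list (16 of 16 genes tested, transthyretin among them) summed to between 100498 and 226139 CPM in the 17 libraries, with no marker at 0 in any library. Library titles carry a running number whose meaning is not given in the sources used here. The 4 libraries with a number of 28 or above were T1 replicates 2, 3 and 4 and T3 replicate 4, and they stood apart from the other 13 in the genes described here. The respiratory chain genes took 2.41% to 3.01% of all counts in those 4 and 3.52% to 4.49% in the other 13. Counts from the mitochondrial genome took 1.86% to 2.04% in those 4 and 2.50% to 3.75% in the others. The endothelial marker list (12 of 12 genes tested, none at 0) summed to between 305 and 572 CPM in the 4 libraries and to between 116 and 266 CPM in the other 13. The epithelial list summed to between 100498 and 165583 CPM in the 4 libraries and to between 137650 and 226139 CPM in the other 13. In mean log2 CPM the endothelial list ran from 4.50 to 5.17 and from 2.89 to 4.17. The epithelial list ran from 9.94 to 10.46 and from 9.89 to 10.55. The part of the title number, the endothelial signal or any other difference between those libraries in the results that follow was not tested beyond the fits given with them.

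Promoter sequence was available for 66 of the 82 genes (71 promoters, RefSeq, build GRCm38.p6, 250 bases before to 50 after the annotated start), and 5 are printed because the expression results turn on these genes or because they show a motif for a factor known to control nuclear genes of the respiratory chain. Capitals mark exact matches, on either strand, to NRF1 (CGCATGCGC, whose matches on the 2 strands can overlap), ETS (CCGGAAG), YY1 (AAGATGGCG), ERR (AAGGTCA) or CRE (TGACGTCA). They are Cox7a2l (chr17:83514284-83514583, minus strand), Ndufb8 (chr19:44555393-44555692, minus strand), Uqcrc1 (chr9:108936398-108936697, plus strand), Ndufs3 (chr2:90904672-90904971, minus strand) and Ndufs7 (chr10:80249199-80249498, plus strand).
Cox7a2l: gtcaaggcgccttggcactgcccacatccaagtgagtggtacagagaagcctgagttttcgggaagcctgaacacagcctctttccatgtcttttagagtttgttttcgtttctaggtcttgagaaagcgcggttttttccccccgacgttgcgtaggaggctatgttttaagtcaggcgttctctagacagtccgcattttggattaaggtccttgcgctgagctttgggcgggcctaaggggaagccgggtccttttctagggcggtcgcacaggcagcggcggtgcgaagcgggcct
Ndufb8: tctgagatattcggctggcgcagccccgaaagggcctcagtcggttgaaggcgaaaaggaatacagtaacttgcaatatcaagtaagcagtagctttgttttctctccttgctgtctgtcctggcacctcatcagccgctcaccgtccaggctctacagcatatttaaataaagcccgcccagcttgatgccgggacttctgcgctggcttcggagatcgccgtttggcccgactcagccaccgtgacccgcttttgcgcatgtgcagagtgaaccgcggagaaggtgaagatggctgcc
Uqcrc1: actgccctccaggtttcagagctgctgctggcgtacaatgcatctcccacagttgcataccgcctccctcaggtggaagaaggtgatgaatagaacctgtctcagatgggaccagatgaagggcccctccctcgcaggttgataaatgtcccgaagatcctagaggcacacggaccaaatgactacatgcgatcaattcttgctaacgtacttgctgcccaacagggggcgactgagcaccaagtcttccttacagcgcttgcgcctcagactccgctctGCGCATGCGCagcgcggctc
Ndufs3: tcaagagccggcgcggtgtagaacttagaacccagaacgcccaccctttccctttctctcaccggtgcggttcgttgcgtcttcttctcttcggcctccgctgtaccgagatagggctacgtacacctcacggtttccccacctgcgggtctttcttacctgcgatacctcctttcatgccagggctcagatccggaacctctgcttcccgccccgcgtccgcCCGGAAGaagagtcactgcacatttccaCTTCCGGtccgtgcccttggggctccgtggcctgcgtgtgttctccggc
Ndufs7: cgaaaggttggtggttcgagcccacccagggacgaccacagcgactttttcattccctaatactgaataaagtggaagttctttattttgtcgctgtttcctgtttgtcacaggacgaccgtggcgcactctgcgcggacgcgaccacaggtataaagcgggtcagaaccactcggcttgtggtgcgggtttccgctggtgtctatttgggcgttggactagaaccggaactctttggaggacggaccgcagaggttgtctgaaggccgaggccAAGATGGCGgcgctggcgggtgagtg

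The Uqcrc1 promoter held the NRF1 letters on both strands in 1 overlapping run, the Ndufs3 promoter held the ETS letters once on each strand, and the Ndufs7 promoter held the YY1 letters. No exact match to any of the 5 letter strings was found in the windows of Cox7a2l and Ndufb8, and near matches were not searched. Over the 71 promoters, NRF1 letters were found in 11.3% against 1.75% of all 32851 promoters, YY1 letters in 9.86% against 1.40%, ETS letters in 22.5% against 8.86%, ERR letters in 11.3% against 4.72% and CRE letters in 5.63% against 1.79%. The Sp1 letters (GGGCGG), not marked above and searched on both strands like the others, were found in 27 of the 71 promoters and in 35.7% of all. These shares are a description of short letter strings, and a match is not a binding site.

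Per kilobase of transcript, the level of the 82 genes over the 17 libraries ranged from 1.90 CPM for Cox4i2 to 2473 CPM for Cox8a, with a median of 327. The highest level per kilobase in complex I was 1778 CPM for Ndufa4, which carries a complex I name but is known as a subunit of complex IV, and the lowest was 2.11 CPM for its paralogue Ndufa4l2. In complex II the range was narrow, from 113 CPM per kilobase for Sdhc, a membrane anchor, to 304 for Sdhb, the iron-sulfur subunit. Complex III ran from 170.0 CPM per kilobase for the core subunit Uqcrc2 to 1472 for the small subunit Uqcr10. In complex V the catalytic subunit Atp5b had the highest level, 1786 CPM per kilobase, and Atp5l the lowest, 8.11. The Atp5l level is uncertain, since 68.5% of the 50-base words of its transcript also occur in other annotated genes and how reads with several matches were counted is not given in the sources used here. Words shared with other genes made up 20% or more of the transcript in 15 of the 82 genes, with the c-ring gene Atp5g2 at the top (87.4%).

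Several complex IV subunits and Ndufa4 have a second, tissue-restricted isoform gene, and 5 such isoforms were among the 82 genes. Cox8b, known from heart and skeletal muscle, made up 17.6% ± 2.83 (SD, n = 5) of the summed Cox8a and Cox8b level per kilobase in CTRL. Its share in single libraries ran from 11.7% to 24.9%, the widest range of the 5, and both ends were T1 libraries. Cox6b2, known as a testis isoform, made up 18.96% ± 1.68 of its pair with Cox6b1 in CTRL (SD, n = 5), and Cox7a1, another muscle isoform, made up 12.1% ± 0.433 of its pair with Cox7a2 (SD, n = 5). The remaining isoforms were near the bottom of detection: Cox4i2, known from lung, stayed at or below 0.239% of its pair with Cox4i1 in all 17 libraries, and Ndufa4l2, known as a hypoxia-responsive gene, at or below 0.467% of its pair with Ndufa4. Among the c-ring genes, which encode the same mature protein, Atp5g1 made up 7.66% to 10.3% of the summed level of Atp5g1 and Atp5g3 per kilobase, computed with a long Atp5g1 transcript of 4715 bases, so its share is a low estimate if shorter transcripts dominate.

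**Figure D1:**
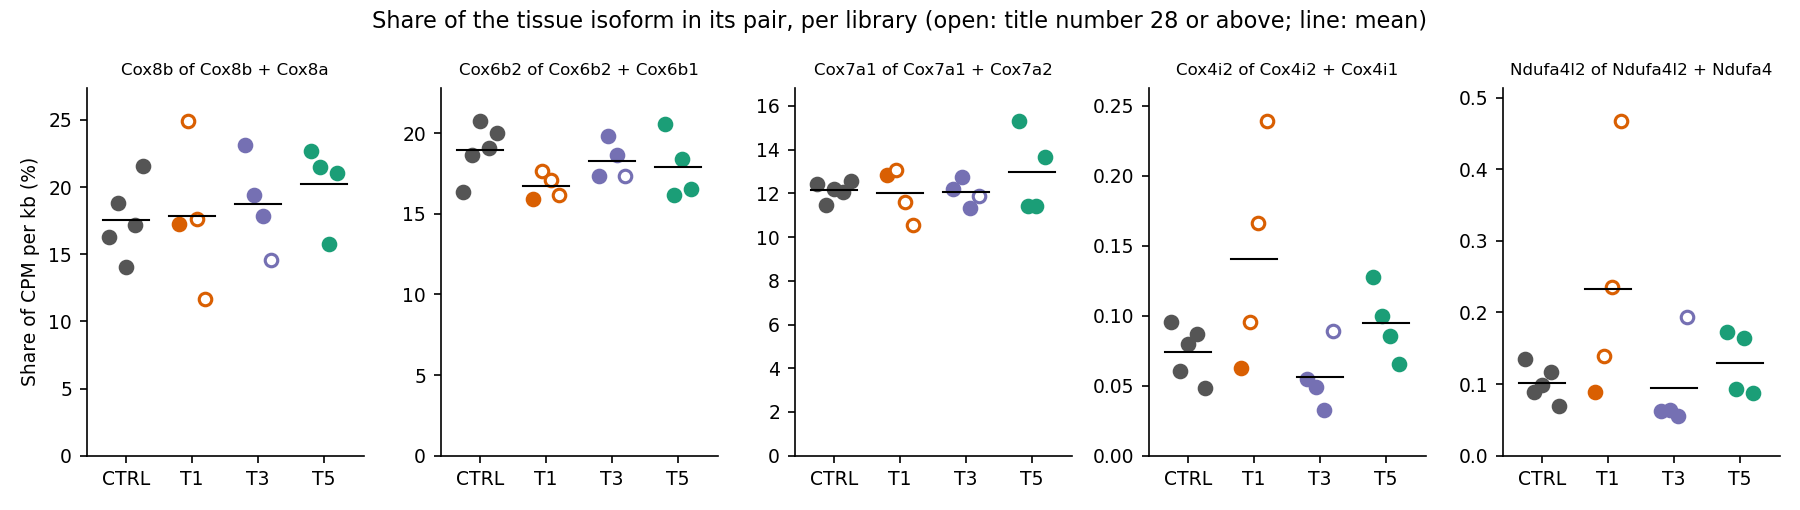
Share (%) of each tissue isoform in the summed CPM per kilobase of its pair, 1 point per library by group; lines are group means and open points are the 4 libraries with title numbers of 28 or above. Cox8b, Cox6b2 and Cox7a1 lie between 10.6% and 24.9%, Cox4i2 and Ndufa4l2 at or below 0.467%.

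The shares of these isoforms in T1, T3 and T5 all overlapped those in CTRL. Cox8b was at 17.2, 24.9, 17.6 and 11.7% in the T1 libraries, 23.1, 19.4, 17.8 and 14.6% in T3 and 22.7, 21.5, 15.7 and 21.04% in T5, against 16.3, 18.8, 14.04, 17.2 and 21.6% in CTRL. For Ndufa4l2 the highest shares, 0.467%, 0.235% and 0.194%, were in T1 replicates 4 and 3 and T3 replicate 4, all with high title numbers.

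After 1 day of DSS, 79 of the 82 genes had a lower mean than CTRL, against 42.3% of all 16851 genes tested, and the median log2 fold change was -0.52, against 0.08 over all genes tested. No gene of the 82, and none of all genes tested, passed an adjusted p of 0.05 in edgeR's quasi-likelihood test (percent called 0). At an unadjusted p under 0.05, 61 of the 82 were lower (74.4%), against a background of 11.7%, and 0 were higher, against 9.43%. The 61 were 27 of 38 in complex I, 3 of 4 in complex II, all 8 in complex III, 8 of 15 in complex IV and 15 of 17 in complex V. T1 and CTRL libraries did not overlap for 4 genes (4.88%), Uqcrfs1, Cox5a, Cox6b2 and Cox7a2l, against a background of 3.86%, a share near that of all genes.

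The count of calls at T1 depended on the test and on single libraries. DESeq2 called 4 of the 82 lower (Ndufs3, Uqcrc1, Uqcrfs1 and Atp5d; background 2.13%) and limma voom with library weights called 77 (background 12.7%). Without T1 replicate 1 edgeR called 71 (background 8.68%), with a median log2 fold change of -0.79, and without T3 replicate 4 it called 18 (background 2.87%). The 61 genes lower at an unadjusted p became 77 without T1 replicate 1 (background 16.1%), but 22 without T1 replicate 4 (6.66%), 23 without T1 replicate 3 (6.24%) and 32 without CTRL replicate 4 (8.32%). With a term for the 4 high title numbers, whose size is set by the T1 and T3 libraries alone, 0 were called, 0 were lower at an unadjusted p (2.05%) and the median was 0.07. Without those 4 libraries, which leaves 1 T1 library that is taken to vary like the other groups, 0 were called, 0 were lower at an unadjusted p (4.14%) and the median was 0.00. The brain marker covariate was the mean log2 CPM of the neuronal, astrocyte and oligodendrocyte markers in each library, centred over the libraries. With this covariate the median was -0.37, with 33 lower at an unadjusted p under 0.05 (background 6.68%) and 0 called.

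The library values show where the difference lay. The mean log2 CPM over the 82 genes was 8.19, 8.13, 8.18, 8.36, 7.999 in CTRL and 8.20, 7.73, 7.40, 7.17 in T1. T1 replicate 1 was inside the CTRL range and the other 3 T1 libraries were below it. Gene by gene, T1 replicate 1 was within the CTRL range for 72 of the 82 genes and below it for 4, whereas replicates 2, 3 and 4 were below it for 76, 79 and 79. Of all genes tested, 17.9%, 20.8%, 24.4% and 28.6% were below the CTRL range in those 4 libraries.

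**Figure D2:**
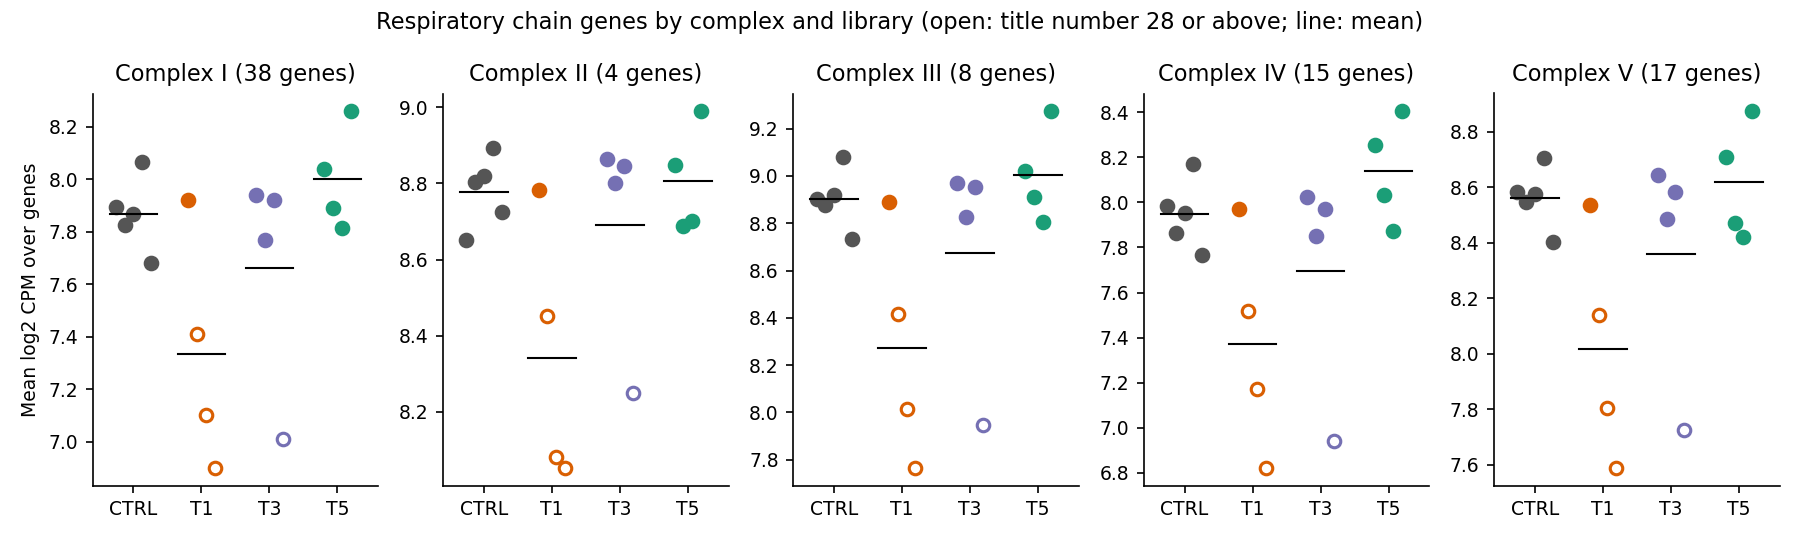
Mean log2 CPM over the genes of each complex (y axis), 1 point per library by group; lines are group means and open points are the 4 libraries with title numbers of 28 or above. In every complex the 4 open points lie below the other 13 libraries, for the 82 genes together at 7.17 to 7.73 against 7.999 to 8.55.

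Complex I takes electrons from NADH. Its 38 genes had a median log2 fold change at T1 of -0.51, with -0.52 for the 7 core subunits that carry flavin and iron-sulfur centres and -0.53 for 29 accessory subunits. Ndufs3, a core subunit, stood at 167, 178, 181, 211 and 158 CPM in CTRL and 161, 121, 97.4 and 97.8 in T1. T1 replicate 1 lay in the CTRL range and the others below it. Its log2 fold change was -0.59 ± 0.18 (SE; edgeR adjusted p = 0.138). The accessory subunit Ndufa10 was at 172, 175, 190.2, 213 and 165 CPM in CTRL and 166, 139.6, 118 and 133 in T1, again with replicate 1 alone inside the CTRL range, and its log2 fold change was -0.40 ± 0.12 (edgeR adjusted p = 0.138). Ndufa8, an accessory subunit, had a log2 fold change of -0.54 ± 0.18 (edgeR adjusted p = 0.141). Apart from Ndufa4l2, the 37 genes ran from -0.66 for Ndufc1 to -0.30 for Ndufs1.

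Complex II is also an enzyme of the citric acid cycle. Its flavoprotein Sdha had the smallest difference of the 79 genes with a lower mean: 557, 727, 673, 661 and 679 CPM in CTRL and 647, 683, 525 and 538 in T1, where the groups overlapped and T1 replicate 2, with a high title number, exceeded 4 of the 5 CTRL libraries. The log2 fold change of Sdha was -0.14 ± 0.11 (edgeR adjusted p = 0.473). The iron-sulfur subunit Sdhb was at 387, 382, 384, 419 and 344 CPM in CTRL and 382, 248, 202 and 195 in T1, and its log2 fold change was -0.58 ± 0.19 (edgeR adjusted p = 0.142). The membrane anchors Sdhc and Sdhd were at -0.47 ± 0.18 and -0.43 ± 0.18.

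In complex III, the cytochrome bc1 complex, all 8 genes had a lower T1 mean, with log2 fold changes between -0.67 for Uqcrq, a small subunit, and -0.45 for Uqcrc2. The core subunit Uqcrc1 was at 515, 619, 618, 677 and 564 CPM in CTRL and 527, 441, 353 and 383 in T1, a log2 fold change of -0.49 ± 0.14 (edgeR adjusted p = 0.138). Uqcrfs1, the Rieske iron-sulfur protein, was at 353, 382, 388, 412 and 345 CPM in CTRL and 326, 281, 236 and 225 in T1. All 4 T1 libraries were below all 5 CTRL libraries, and the log2 fold change was -0.49 ± 0.14 (edgeR adjusted p = 0.138).

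In complex IV, cytochrome c oxidase, 14 of 15 genes had a lower T1 mean. Cox7a2l, known for its part in joining complexes III and IV into supercomplexes, was at 50.5, 52.9, 50.3, 53.2 and 48.8 CPM in CTRL and 47.04, 32.6, 33.2 and 33.3 in T1. T1 replicate 1 was just below the lowest CTRL library and the other 3 lay within 1 CPM of each other. The log2 fold change was -0.49 ± 0.14 (edgeR adjusted p = 0.138). Cox6b2 had the most negative log2 fold change of the 82 genes, -0.80 ± 0.26 (edgeR adjusted p = 0.142), with 133, 138, 172, 173 and 138 CPM in CTRL and 128, 98.03, 69.5 and 51.4 in T1. The matrix-side subunits Cox5a and Cox5b were at -0.56 ± 0.17 and -0.59 ± 0.21. The 7 ubiquitous isoforms (Cox4i1, Cox6a1, Cox6b1, Cox7a2, Cox7b, Cox8a and Ndufa4) ran from -0.60 to -0.44.

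In complex V, 16 of 17 genes had a lower T1 mean, with medians of -0.55 for the 5 subunits of the catalytic F1 head and -0.65 for the 3 c-ring genes. Atp5d, the delta subunit of F1, was at 891, 910.0, 1004, 1111 and 813 CPM in CTRL and 832, 601, 530.3 and 495 in T1, a log2 fold change of -0.62 ± 0.19 (edgeR adjusted p = 0.138). Atp5g1 was at 852, 801, 892, 984 and 707 CPM in CTRL and 771, 519.7, 378 and 315 in T1, and its log2 fold change of -0.77 ± 0.26 was the most negative of the complex (edgeR adjusted p = 0.147). T1 replicate 1 lay in the CTRL range for both. Atp5g3, another c-ring gene, and Atp5o, of the peripheral stalk, were at -0.65 ± 0.22 and -0.65 ± 0.22. About 47.9% of the annotated exon bases of Atp5o overlap another gene, so its counts are uncertain.

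The 3 genes with a higher T1 mean were all among the lowest in level: Atp5l (0.46), Ndufa4l2 (0.40) and Cox4i2 (0.20), none past the threshold at an adjusted or unadjusted p. Atp5l, a membrane subunit of the synthase, was at 5.08, 4.56, 3.95, 3.02 and 4.26 CPM in CTRL and 3.47, 6.35, 6.41 and 6.65 in T1. The 3 T1 libraries with high title numbers were above every CTRL library, and replicate 1 was inside the CTRL range. Ndufa4l2 was at 2.37, 1.53, 1.68, 2.27 and 1.07 CPM in CTRL and 1.84, 1.83, 2.33 and 3.46 in T1, with only replicate 4 above the CTRL range.

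**Figure D3:**
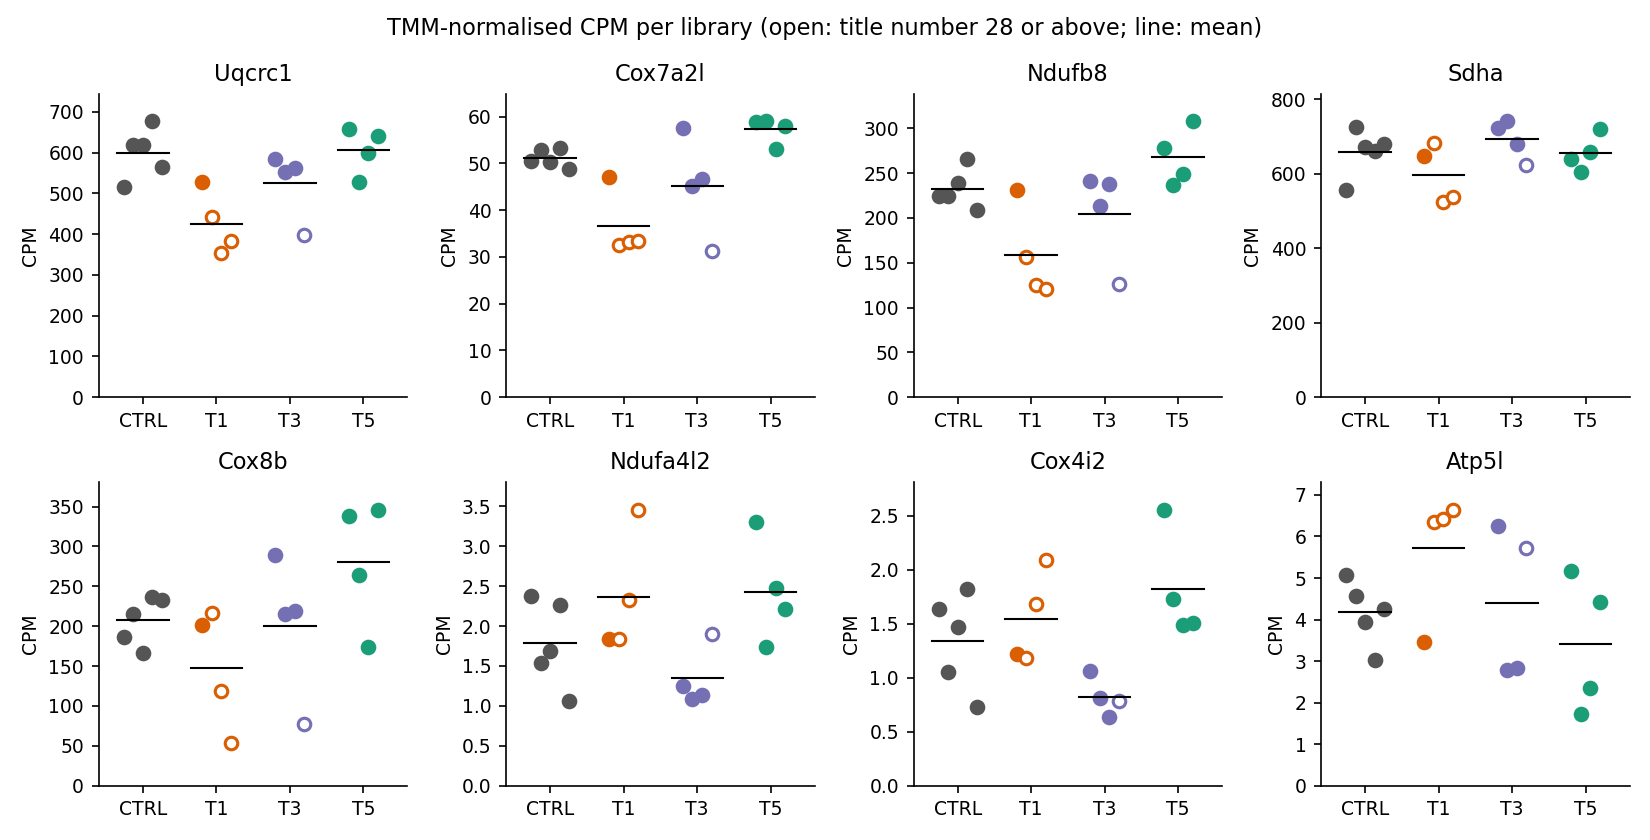
TMM-normalised CPM (y axis, from 0) per library by group for 8 of the genes; lines are group means and open points are the 4 libraries with title numbers of 28 or above. The open points are the lowest for Uqcrc1, Cox7a2l and Ndufb8, overlap the rest for Sdha and lie at 5.73 to 6.65 CPM for Atp5l.

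Transcript length moved with the T1 difference, in the 82 genes and in all others. The representative transcripts of the 82 genes had a median of 764 bases (315 to 4715), against 2823.5 bases over all genes tested. Among other genes with a mean of 100 CPM or more, the median log2 fold change at T1 was -0.49 for 160 genes under 1000 bases, -0.34 for 448 of 1000 to 2000 bases, -0.11 for 705 of 2000 to 4000 bases and 0.08 for 407 of 4000 bases or more. The respiratory chain genes of the same level and length were at -0.56 (46 genes), -0.49 (20 genes), -0.34 (5 genes) and -0.77 (1 gene, Atp5g1). Under 1000 bases, 96.9% of the other genes of that level had a lower T1 mean. Within the 82 genes, Spearman's rho between log2 fold change and length was 0.34, and it was 0.43 over the 16848 genes tested with a known length. Pearson's r with log2 length was 0.16 over the 82 genes and 0.38 over the 72 of them with a mean of 100 CPM or more. Over the 16848 genes it was 0.32. These are correlations across genes of the same libraries, and genes are not independent replicates. The part of transcript length in the T1 difference was not tested, and no difference particular to the respiratory chain was tested.

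**Figure D4:**
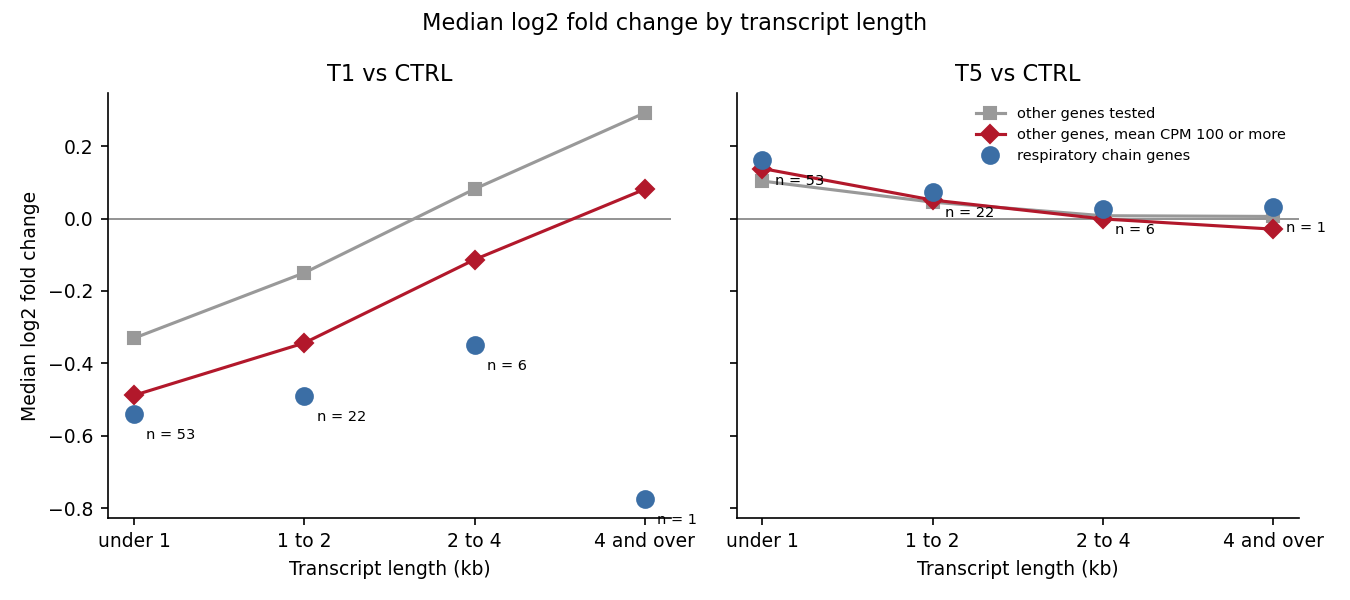
Median log2 fold change (y axis) by transcript length class in kb (x axis) for T1 and T5 against CTRL: blue points are the respiratory chain genes with their number, grey squares all other genes tested, red diamonds other genes with a mean of 100 CPM or more. At T1 the 160 short, abundant other genes lie at -0.49 and all 53 short respiratory chain genes at -0.54.

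After 3 days of DSS the difference was small. Of the 82 genes, 79 had a lower T3 mean than CTRL (47.3% of all genes did), with a median log2 fold change of -0.17 against 0.02 over all genes. By edgeR 0 were called in either direction (background 0), and 0 had an unadjusted p under 0.05, against backgrounds of 1.77% lower and 3.20% higher. DESeq2 (background 0 lower, 0.00255% higher) and limma voom (background 0) also called 0 of the 82. The comparisons of T1, T3 and T5 with CTRL share the CTRL libraries. The mean log2 CPM over the 82 genes was 8.25, 8.09, 8.21, 7.30 in the T3 libraries. Replicate 4, the library with a high title number, was below the CTRL range for 77 genes, against 0, 6 and 3 for the others. Of all genes tested, 24.9% were below that range in replicate 4 and 13.8%, 13.6% and 13.4% in replicates 1 to 3. Without replicate 4 the median was 0.01, with 35 genes lower and 47 higher. The direction was not kept with the term for high title numbers either (median -0.00058, 41 lower and 41 higher), nor without the 4 libraries (0.02, 33 lower and 49 higher), and limma voom gave -0.02 (49 lower and 33 higher). The median was -0.26 without T3 replicate 1, and -0.25 without T3 replicate 3 or with the brain marker covariate. The lowest p in each complex belonged to Ndufb7, an accessory subunit (-0.30 ± 0.23), Sdhb (-0.17 ± 0.19), Uqcrc1 (-0.19 ± 0.14), Cox4i2 (-0.71 ± 0.34) and Atp5d (-0.26 ± 0.19), all with edgeR adjusted p = 0.911 but for Sdhb, at 0.916.

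Cox4i2 had the most negative log2 fold change at T3. It was at 1.64, 1.05, 1.47, 1.83 and 0.729 CPM in CTRL, 1.22, 1.18, 1.68 and 2.09 in T1, 1.06, 0.814, 0.639 and 0.783 in T3 and 2.56, 1.73, 1.49 and 1.51 in T5. All T3 libraries were below all T1 and all T5 libraries, while CTRL overlapped T3. The log2 fold changes were -0.91 ± 0.36 for T3 against T1 and 1.15 ± 0.36 for T5 against T3, with edgeR adjusted p of 0.577 and 0.342. In such a comparison of T3 with T1 the groups did not overlap, downward, for 1.73% of all genes, and in that of T5 with T3, upward, for 3.04%. Levels of this gene were between 0.639 and 2.56 CPM, among the lowest of the 82 genes.

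After 3 days of DSS and 2 days of water, 76 of the 82 genes had a higher mean than CTRL (54.5% of all genes did), and the median log2 fold change was 0.13 against 0.02 over all genes. By edgeR 0 were called (background 0), 0 had an unadjusted p under 0.05 (3.89% higher and 3.94% lower over all genes), and DESeq2 (background 0.0279% higher, 0.067% lower) and limma voom (background 0) called 0. T5 replicate 4 was above the CTRL range for 66 of the 82 genes, replicate 1 for 20, and replicates 2 and 3 for 3 and 1. Of all genes tested, 19.2%, 19.0%, 22.1% and 20.7% were above that range in replicates 4, 1, 2 and 3. Without replicate 4 the median was 0.02, with 54 genes higher and 28 lower, and without CTRL replicate 5 it was 0.08. With the brain marker covariate it was 0.34. By length, the 53 genes under 1000 bases were at 0.16, the 22 of 1000 to 2000 bases at 0.07 and the 6 of 2000 to 4000 bases at 0.03, with Spearman's rho of -0.61 between log2 fold change and length over the 82 genes (-0.04 over 16848 genes tested). Among other genes with a mean of 100 CPM or more the medians at T5 followed length too, at 0.14, 0.05, -0.0011 and -0.03 in the 4 length classes, and those of the respiratory chain genes of that level were 0.15 (46 genes), 0.07 (20 genes), 0.02 (5 genes) and 0.03 (1 gene). The genes with the lowest p in their complex were Ndufa4l2 (0.45 ± 0.32, edgeR adjusted p = 0.785), Sdhb (0.06 ± 0.19), the hinge protein Uqcrh (0.21 ± 0.26), Cox4i2 (0.44 ± 0.33) and Atp5g2 (0.20 ± 0.20).

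**Figure D5:**
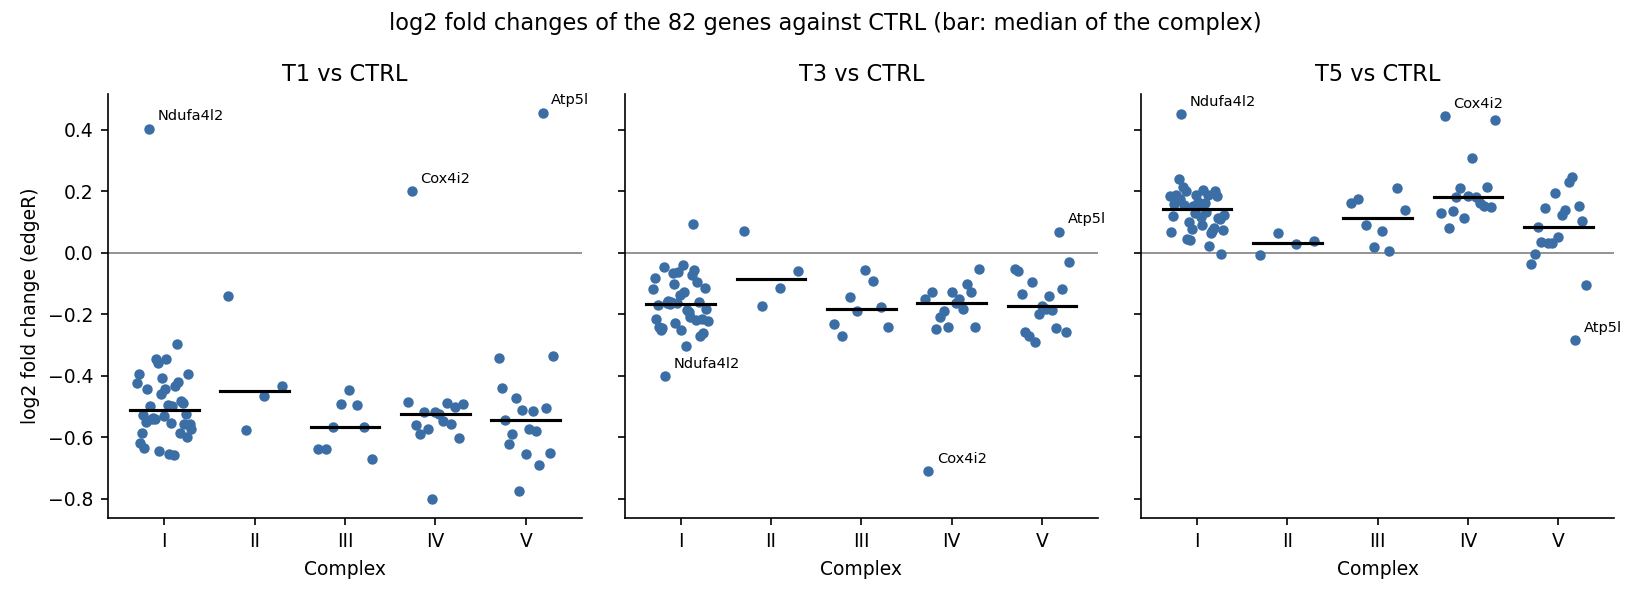
log2 fold change against CTRL (y axis, edgeR) of each of the 82 genes at T1, T3 and T5, by complex (x axis); bars are the medians of the complexes, and all 3 panels use the same CTRL libraries. At T1 the points lie below 0 but for Ndufa4l2, Cox4i2 and Atp5l; at T5 76 lie above 0.

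T5 against T1, which shares the T1 libraries with the T1 comparison above, was the comparison with calls. In the edgeR test 2 of the 82 genes rose, Cox7a2l and Ndufb8 (2.44%), against 208 of all genes (1.23%), and 0 fell, against 2.78%. At an unadjusted p under 0.05, 75 of 82 were higher (91.5%), against 13.1%, and the median log2 fold change was 0.66 against -0.01 over all genes. By length, other genes with a mean of 100 CPM or more had medians of 0.64, 0.39, 0.11 and -0.12, and the respiratory chain genes of that level 0.72, 0.54, 0.32 and, for Atp5g1 alone, 0.81. The groups did not overlap, upward, for 17 genes (20.7%; background 5.52%): 7 of complex I, 2 of complex III, 4 of complex IV and 4 of complex V. Cox7a2l was at 58.9, 59.05, 53.1 and 57.98 CPM in T5 and 47.04, 32.6, 33.2 and 33.3 in T1. Its log2 fold change was 0.65 ± 0.15 (edgeR adjusted p = 0.0308). Ndufb8, an accessory subunit often used as a marker of complex I, was at 278, 237, 249 and 308 CPM in T5 and 231, 157, 126 and 120.2 in T1, a log2 fold change of 0.76 ± 0.21 (edgeR adjusted p = 0.0499). All 4 T5 libraries were above all 4 T1 libraries for both genes, and T1 replicate 1 was the nearest to T5.

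Over 25 other settings, Cox7a2l passed the threshold in 15 and Ndufb8 in 6. DESeq2 called 43 of the 82 higher (background 4.30%), limma voom 77 (12.2%) and the fit with the brain marker covariate 67 (7.28%). Leaving out 1 library at a time gave 0 to 74 calls. There were 74 without T1 replicate 1 (background 10.5%) and 54 without T3 replicate 4 (6.80%). There were 0 without any of T1 replicates 2 to 4 or any T5 library, and 1 without any other library. In either direction, edgeR called 0, 0 and 200 of all genes tested without T1 replicates 2, 3 and 4. Without T5 replicates 1 to 4 it called 22, 1, 0 and 381 of all genes. In the fits with 1 call it called 435 to 759 of all genes. The 75 genes higher at an unadjusted p became 44 without T1 replicate 4 (background 8.76%), 46 without T1 replicate 3 (8.19%) and 47 without T5 replicate 4 (9.97%). Given the term for high title numbers 0 were called and 0 were higher at an unadjusted p (6.49%), with a median of 0.06, Cox7a2l at 0.22 and Ndufb8 at 0.18. Without the 4 libraries 0 were called and 0 were higher at an unadjusted p (4.13%), with a median of 0.12 and the 2 genes at 0.30 and 0.23. The fit on T5 and T1 alone called 0 of the 82 and, in either direction, 42 of all 15100 genes tested. The direction of Atp5l was the opposite of the rest, -0.74 ± 0.36 (edgeR adjusted p = 0.211).

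For T3 against T1, 79 of the 82 genes were higher in T3, where 52% of all genes were lower, with a median log2 fold change of 0.37; 0 were called by edgeR (background 0) or DESeq2 (background 0.0128% higher, 0.154% lower). At an unadjusted p under 0.05, 10 were higher (background 3.57%) and 2 lower, Ndufa4l2 and Cox4i2 (background 4.63%). By limma voom, which weights each library by its fit, 78 were called higher (background 12.5%) and 1 lower (background 12%), with a median of 0.70. The 10 genes higher at an unadjusted p became 77 without T1 replicate 1 (background 12%) and 71 without T3 replicate 4 (11.6%), and 0 without T1 replicate 3 (1.19%), T1 replicate 4 (1.11%) or T3 replicate 1 (1.79%). The median was 0.63 without T1 replicate 1 and 0.21 without T1 replicate 4. The direction turned once the high title numbers had a term of their own (median -0.09, 63 of 82 lower), without the 4 libraries the median was 0.01 (36 lower, 46 higher), and with the brain marker covariate it was 0.12. The lowest p in complexes II to V were those of Sdhb (0.41 ± 0.20), Uqcrfs1 (0.40 ± 0.15), Cox4i2 and Atp5b (0.38 ± 0.16).

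For T5 against T3, 78 genes were higher in T5 (50.9% of all genes were), the median was 0.31, 0 were called by edgeR (background 0), DESeq2 (0.107% higher, 0.145% lower) or limma voom (0), and 3 had an unadjusted p under 0.05, all higher (Ndufa4l2, Cox4i2 and Cox7a2l; background 4.31%). The median fell to 0.11 without T3 replicate 4 or without all 4 libraries of high title number, to 0.14 with the term for them or by limma voom, and to 0.20 without T5 replicate 4. With the brain marker covariate it was 0.59, with 70 genes higher at an unadjusted p (background 9.25%) and 0 called, and without T1 replicate 1 the 3 became 6 (5.22%). Ndufa4l2 was at 1.25, 1.09, 1.14 and 1.90 CPM in T3 and 3.30, 1.73, 2.48 and 2.21 in T5. Uqcr11 (0.45 ± 0.30) and Atp5g2 (0.39 ± 0.22) had the lowest p of complexes III and V.

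Other genes of the pathway were read from lists. Assembly factors, which build the complexes but are no part of them, had a median log2 fold change at T1 of -0.28 (45 of 47 genes tested, 39 lower, 18 of them at an unadjusted p under 0.05 against the background of 11.7%, 0 higher at that p against 9.43%). Ndufaf3, an assembly factor of complex I, was at 71.3, 61.04, 62.4, 87.02 and 60.7 CPM in CTRL and 57.1, 42.3, 37.04 and 38.6 in T1, a log2 fold change of -0.65 ± 0.17 (edgeR adjusted p = 0.131). All T1 libraries were below all CTRL libraries. Coa7, of complex IV assembly, was at -0.43 ± 0.12. Of 16 citric acid cycle and pyruvate dehydrogenase genes, 15 were lower at T1, 8 of them at an unadjusted p under 0.05 (background 11.7%), with a median of -0.28. The lowest p were those of Mdh2, malate dehydrogenase (-0.40 ± 0.12), and Suclg1, a succinyl-CoA ligase subunit (-0.49 ± 0.15).

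Of 15 regulators of mitochondrial gene expression, 8 were lower and 7 higher at T1, with a median of -0.09; 2 had an unadjusted p under 0.05 in each direction, against backgrounds of 11.7% lower and 9.43% higher, so that the counts are near those of all genes. Polg, the mitochondrial DNA polymerase, was at 0.45 ± 0.15 and Tfb1m, a mitochondrial rRNA methyltransferase, at -0.52 ± 0.18, both with edgeR adjusted p above the threshold (0.141 and 0.152). Of 13 subunit genes of the mitochondrial genome, 8 were tested and 7 were lower at T1, with a median of -0.41 and 3 lower at an unadjusted p under 0.05 (background 11.7%). mt-Nd1, a complex I subunit, was at 3539.8, 3489, 2928, 3691 and 2940.3 CPM in CTRL and 3487, 2320.0, 1936 and 1756 in T1, with the 3 libraries of high title number lowest (-0.48 ± 0.19), and mt-Nd6 was at -0.45 ± 0.17. Of 7 tested genes in a list of further chain components, with Atp5mpl left out because it met the symbol rule, all were lower at T1 (median -0.51, 6 at an unadjusted p under 0.05, background 11.7%). The list held cytochrome c1, Cyc1 (-0.48 ± 0.15), and also Dmac1 (-0.63 ± 0.18), by its name an assembly factor of complex I rather than a chain component. None of these lists had a gene with an edgeR adjusted p under 0.05 at T1.

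Marker lists of other cell types differed between the groups. Of all 16851 genes tested, 9716 were higher at T1 and 9187 at T5, each against CTRL. T5 was higher for 8571 of them against T3 and for 8231 against T1. At T1, 12 of 12 endothelial markers had a higher mean (median 1.13), and their summed level was 224 to 572 CPM in the T1 libraries against 116 to 266 CPM in CTRL, with T3 at 154 to 305 and T5 at 168 to 250.02. Mural markers (10 of 10 higher, none at 0) summed to 54.4 to 151 CPM in CTRL and 98.9 to 208 in T1, and neuronal markers (12 of 12 higher, none at 0) to 18.3 to 142 in CTRL and 133 to 466 in T1. Oligodendrocyte markers (10 genes, with Ugt8a at 0 in at least 1 library) varied within every group: the sum was 445 to 16588 CPM in T5, 171 to 985 in T3, 308 to 9223 in T1 and 96.6 to 7101 in CTRL. Fibroblast markers (7 of 7 higher at T1, median 0.62, none at 0) had sums of 258 to 472 CPM (CTRL), 446 to 518 CPM (T1), 347 to 922 CPM (T3) and 326 to 649 CPM (T5). Macrophage markers (8 genes, with Cd163 at 0 in at least 1 library) were 8 of 8 higher at T1 (median 0.38) and at T5 (0.71), with sums of 87.3 to 154 CPM (CTRL), 112 to 248 CPM (T1), 90.4 to 179 CPM (T3) and 139 to 295 CPM (T5). Erythrocyte markers were 5 of 5 higher at T5 against CTRL (median 0.71), against T3 (1.37) and against T1 (0.86), none at 0, and summed to 922 to 2203 CPM in T5 against 421 to 1434 in CTRL, 455 to 1313 in T1 and 429 to 782 in T3. Neuronal markers were also 12 of 12 higher at T5 against CTRL (median 1.99), with a sum of 84.3 to 950.3 CPM in T5 and 27.4 to 538 in T3. Astrocyte markers were 8 of 10 higher against CTRL both at T1 (median 0.46) and at T5 (0.94). Ependymal markers were 7 of 9 higher at T1 (median 0.25) and 8 of 9 lower at T3 (-0.54), where 47.3% of all genes were lower. Epithelial markers had a T1 median of 0.01, with 9 of 16 higher, and summed to 137650 to 206049 CPM in CTRL and 100498 to 226139 in T1. The part of these cell types in the differences of the respiratory chain genes was not tested beyond the fit with the brain marker covariate.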

How the data were processed

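Whole choroid plexus RNA was amplified with SMART-Seq v4 and sequenced, and the authors deposited 1 table of raw read counts per gene for 17 libraries. Per the submitters' processing notes, Trimmomatic 0.39, STAR 2.6.1b and featureCounts 1.6.4 were used with GRCm38; the notes used here state neither the strand setting nor how multiply matched reads were treated. Of 55487 gene IDs, 55394 were found in GENCODE M21, which gave names and transcripts. Counts were filtered with filterByExpr by group (16851 genes kept, all 82 genes among them), scaled by TMM and fitted with edgeR 4.0.16 (robust quasi-likelihood, 1 mean per group, all libraries; R 4.3.3). P-values were adjusted by Benjamini-Hochberg over all genes tested, with a threshold of 0.05. Standard errors are the log2 fold change divided by the root of the F statistic and are approximate. Alternatives were RLE factors, no filter, DESeq2 1.42.0, limma voom 3.58.1 with library weights, the 2 groups alone and a term for title numbers of 28 or above. Further fits left out those libraries or each library, or took the mean log2 CPM of brain markers, centred over the libraries, as covariate. The scripts were tested on simulated data.

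CPM values are TMM-normalised, and log2 CPM uses a prior count of 2. Levels per kilobase use 1 APPRIS principal transcript per gene, preferring one matched to a RefSeq mRNA. The transcript rule, and the length of the NRF1 and YY1 letter strings, were changed after a first run. No 2 replicates were the same library: counts of all 28 replicate pairs differed beyond sampling noise (chi-square per gene 7.37 to 119). The genes and lists were chosen with earlier results of these data known. Named at T1 were the 4 genes with the smallest p in each complex and those of opposite sign to their complex, in other comparisons the gene with the smallest p in each complex, the isoform pairs and c-ring genes, the highest and lowest genes by level per kilobase, and 2 genes from each list of other pathway genes. The results of 1 gene that this rule names are not reported here. Other named genes give the ends of a range or a count.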

Additional observations from a re-analysis of the deposited data

Results flagged for a closer look

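In groups of 4 or 5 libraries, 43 quantities were looked at for a highest or lowest library far from the rest. Of 172 groups in all, 16 had one. Chance alone gives about 1 in 20 for a single quantity in a single group. The 43 quantities come from the same libraries and are not independent tries. The count of 16 therefore cannot be read against that share. Of the 16, 14 were in T3 replicate 4 and were low there. The share of all counts taken by complex V was 0.915% in that library and 1.27% to 1.34% in the other 3 T3 libraries. The genes low in it were Atp5b (2572 CPM, against 3775 to 3923), Atp5d (492 CPM, against 873 to 901), Atp5g1 (333 CPM, against 776 to 867), Atp5g2 (14.4 CPM, against 26.7 to 27.3), Atp5g3 (616 CPM, against 1182 to 1265), Cox6b2 (63.3 CPM, against 146 to 154), Cox7a1 (24.2 CPM, against 50.9 to 55.1). They further included Cox7b (245 CPM, against 486 to 535), Ndufa10 (137 CPM, against 182 to 189), Sdhb (225 CPM, against 363 to 388), Sdhc (242 CPM, against 388 to 417), Uqcr11 (185 CPM, against 438 to 474) and Uqcrfs1 (249 CPM, against 377 to 393). T3 replicate 4 has the title number 32, the highest of the series, and the respiratory chain genes took 2.50% of its counts. The other 2 were in T1 replicate 1, the T1 library with a low title number: Cox7a2l (47.04 CPM, against 32.6 to 33.3) was high and Atp5l (3.47 CPM, against 6.35 to 6.65) was low against the other T1 libraries.

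The T5 and T1 groups differed in Cox7a2l (log2 fold change 0.65) and Ndufb8 (0.76) by edgeR's quasi-likelihood test; over 25 other settings the values ran from 0.22 to 0.80 for Cox7a2l, with adjusted p from 0.00213 to 0.676, and from 0.18 to 1.001 for Ndufb8, with adjusted p from 0.00215 to 0.753. The lowest values of both came with the term for high title numbers.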

How the results depend on the processing

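The biological coefficient of variation was 37.6%, and the count of calls changed with the libraries that entered. At T1 the main count of 0 became 4 with DESeq2 and 77 with limma voom, and 0 to 71 when 1 library was left out, 71 without T1 replicate 1 and 18 without T3 replicate 4. For T3 against T1 it became 79 with limma voom, 78 higher (background 12.5%) and 1 lower (background 12%). For T5 against T1 the main count of 2 became 1 with RLE size factors, 43 with DESeq2, 77 with limma voom, 67 with the brain marker covariate, and 0 with the term for high title numbers, without the 4 libraries, or with the 2 groups alone; leaving out 1 library gave 0 to 74. The median log2 fold change of the 82 genes at T1 became 0.069 with the term for high title numbers and 0.0023 without the 4 libraries, and that of T5 against CTRL became 0.34 with the brain marker covariate. At T1 against CTRL, 59 of the 82 genes were higher and 23 lower with the term. Without the 4 libraries 42 were higher and 40 lower. Among genes picked by the naming rule at T1, the direction reversed with the term for Sdhc (0.015), Sdhd (0.048), Uqcrc2 (0.022) and Uqcrq (0.085). It also reversed with the term for Atp5l (-0.13), Ndufa4l2 (-0.055), mt-Nd6 (0.017) and mt-Nd1 (0.029). Without the 4 libraries it reversed for Sdhd (0.022), Atp5l (-0.29), Cox4i2 (-0.14) and mt-Nd1 (0.054). Sdhb at T5 against CTRL was -0.0041 without T5 replicate 4 and up to 0.11 without another library. The cause was not tested. In the other 196 combinations of result and setting, the filter on low counts among them, counts of calls stayed within 1.5 times and medians moved by less than 1 SD between libraries. That SD, 0.31 for T3 against CTRL, exceeds the median of that comparison, which changed sign within it, from -0.17 to 0.013 without T3 replicate 4 and 0.023 without the 4 libraries, and the median of T5 against CTRL was 0.022 without T5 replicate 4. Without the 15 genes that share 20% or more of their 50-base words, an alternative chosen after seeing the data, the T1 median was -0.53. Taking the longest principal transcript, also chosen after seeing the data, put the medians by length at T1 at -0.55 (42 genes), -0.53 (23), -0.34 (5) and -0.59 (2) for the respiratory chain and at -0.49, -0.35, -0.12 and 0.07 for other genes. No paired analysis was possible because the titles hold 1 running number that no group shares with another.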
